A study of Rattus norvegicus with 32 samples.

Results

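Rab GTPases are small GTP-binding proteins that give each membrane compartment of a cell its identity. They were followed here in RNA sequencing of liver sinusoidal endothelial cells (LSECs), and the members were all genes whose symbol consists of Rab, a number and at most a letter and a further digit, which took 58 of the 32623 genes in the files. The rule uses the name alone. Of the 58 genes, 52 had enough counts for a test in at least 1 of the 6 comparisons made, 43 in all 6, and 6 in none (Rab3b, Rab3c, Rab9b, Rab27b, Rab36 and Rab42).

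A Rab protein switches between a GDP-bound form held in the cytosol and a GTP-bound form on a membrane, where it recruits effectors that move, tether and fuse vesicles. Guanine nucleotide exchange factors (GEFs) switch it on, GTPase-activating proteins (GAPs) switch it off, and a lipid tail added by geranylgeranyl transferase anchors it. LSECs line the liver sinusoids, take up macromolecules from blood by very active endocytosis through scavenger receptors, and release extracellular vesicles, so that both the uptake and the release branches of Rab traffic are of interest in these cells.

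The CCl4 experiment held 22 libraries of male Wistar Han rats. Healthy rats (n = 6) were untreated. The acute liver injury group (n = 5) inhaled carbon tetrachloride (CCl4), a hepatotoxin, for 2 weeks, the fibrosis group (n = 5) for 6 weeks and the cirrhosis group (n = 6) for 12 to 14 weeks. Phenobarbital was given in the drinking water in the CCl4 model, and whether the untreated rats also drank it is not given in the sources used here. The thioacetamide (TAA) experiment held 10 libraries in groups of 5, which the labels call control and TAA control and which are named T control and TAA control below. The study describes healthy rats and rats given intraperitoneal TAA for 12 weeks. Which of the groups received TAA was not settled by the labels, so no disease direction is given. The labels name Wistar Han rats for all libraries and the study's methods Sprague-Dawley rats for the TAA model. Cells were isolated several days after the last dose by perfusion, enzyme digestion and a density gradient, so other liver cells can remain. The values were expected counts, which are estimated read counts per gene, and totals ranged from 25646531 to 46464289 counts per library. In the text CPM means counts per library size, corrected with TMM factors, and a gene was called when its limma-voom p-value, adjusted by Benjamini-Hochberg over all genes tested, was under 0.05 and its fold change over 1.5. Levels are compared between groups for 1 gene and not between genes, since gene lengths were not used.

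Before the Rab genes, the libraries were compared on markers of liver cells. The summed level of 13 LSEC markers was 18970 to 36230 CPM in healthy rats, 4287 to 5081 in acute injury, 3075 to 4231 in fibrosis and 19200 to 25200 in cirrhosis, so the acute and fibrosis libraries stood apart from the others. Of these 13, 11 were lower in acute injury and 12 in fibrosis than in healthy rats, with Stab2, a hyaluronan scavenger receptor of LSECs, at means of 3470 CPM in healthy, 148 in acute, 176 in fibrosis and 3370 in cirrhosis, while the pan-endothelial Cdh5 had means of 1290, 1590, 1020 and 1540 CPM. Summed hepatocyte markers (8 genes) ranged from 745 to 18470 CPM in healthy, 87.9 to 792 in acute, 1027 to 4293 in fibrosis and 1713 to 11680 in cirrhotic libraries, and exceeded 5000 CPM in healthy 1, 2, 4 and 6 and cirrhosis 1, 2 and 5. Summed macrophage markers (9 genes) were 495 to 2991 CPM in healthy, 81.9 to 206 in acute, 31.95 to 184 in fibrosis and 949 to 2847 in cirrhotic libraries. Summed stellate cell markers (9 genes) were 280 to 785 CPM in healthy, 1315 to 2116 in acute, 1277 to 1713 in fibrosis and 622 to 2014 in cirrhotic libraries. In acute injury and fibrosis this sum was mostly Reln, with means of 166 CPM in healthy, 1670 in acute, 1350 in fibrosis and 213 in cirrhosis. Col3a1 had means of 223, 5.2, 22.4 and 924 CPM in the same order. Against healthy rats 1 of the 9 stellate markers was higher and 5 lower in acute injury, 3 and 3 in fibrosis, and 7 and 0 in cirrhosis. The part of these differences in the Rab results was not tested beyond the values without the hepatocyte-rich libraries given below. In bulk RNA, fewer cells of a type and less RNA per cell cannot be told apart.

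Which Rab genes were de-regulated at each stage was asked by comparing each CCl4 group with healthy LSECs. In acute injury, 16 of 47 tested Rab genes were higher and 19 lower, that is 74.5%, beside 73.4% called among all 14317 genes tested (35.5% higher and 37.9% lower). In fibrosis, 19 of 48 were higher and 18 lower (77.1%, beside 70.2% of all genes, 35.3% higher and 34.9% lower), and in cirrhosis 16 of 52 were higher and 11 lower (51.9%, beside 51.8%, of all genes 27.1% higher and 24.7% lower). The share of Rab genes called was thus close to the background at each stage. The median log2 fold change over the tested Rab genes was -0.06 in acute injury, 0.05 in fibrosis and 0.12 in cirrhosis, beside -0.09, -0.03 and 0.07 over all genes. The groups did not overlap in CPM for 31 Rab genes in acute injury (66.0%, beside 60.1% of all genes), 36 in fibrosis (75.0%, beside 58.7%) and 10 in cirrhosis (19.2%, beside 27.3%).

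Scaling bore on direction. With library-size CPM without TMM factors, the median log2 fold change of all genes moved up by 0.41 in acute injury, 0.40 in fibrosis and 0.35 in cirrhosis, and the share of called genes that were higher went from 50.3% to 60.9% in fibrosis and from 52.2% to 71.3% in cirrhosis. Without the hepatocyte-rich libraries, which leaves healthy 3 and 5 and cirrhosis 3, 4 and 6, the Rab genes called were 14 higher and 19 lower in acute injury, 14 higher and 19 lower in fibrosis, and 5 higher and 11 lower in cirrhosis. All genes moved too in these fits, in which 67.2% of all genes were called in acute injury (50.4% of them higher), 65.2% in fibrosis (49.3%) and 35.6% in cirrhosis (42.5%).

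Single calls also changed with library-size CPM. In acute injury Rab11a (-0.24), Rab11b (-0.46), Rab34 (-0.53) and Rab33a (-0.64, adjusted p = 0.145, limma-voom) were no longer called and Rab6b (1.73) was called higher. In fibrosis Rab11a (-0.41) was no longer called. In cirrhosis Rab3a (-0.28), Rab20 (-0.36), Rab5b (-0.37), Rab5c (-0.43) and Rab11b (-0.52) were no longer called, while Rab31 (0.66) was called higher, so the falls of these 5 genes in cirrhosis depend on the scaling. Rab7a was called higher at all 3 stages.

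**Figure D1:**
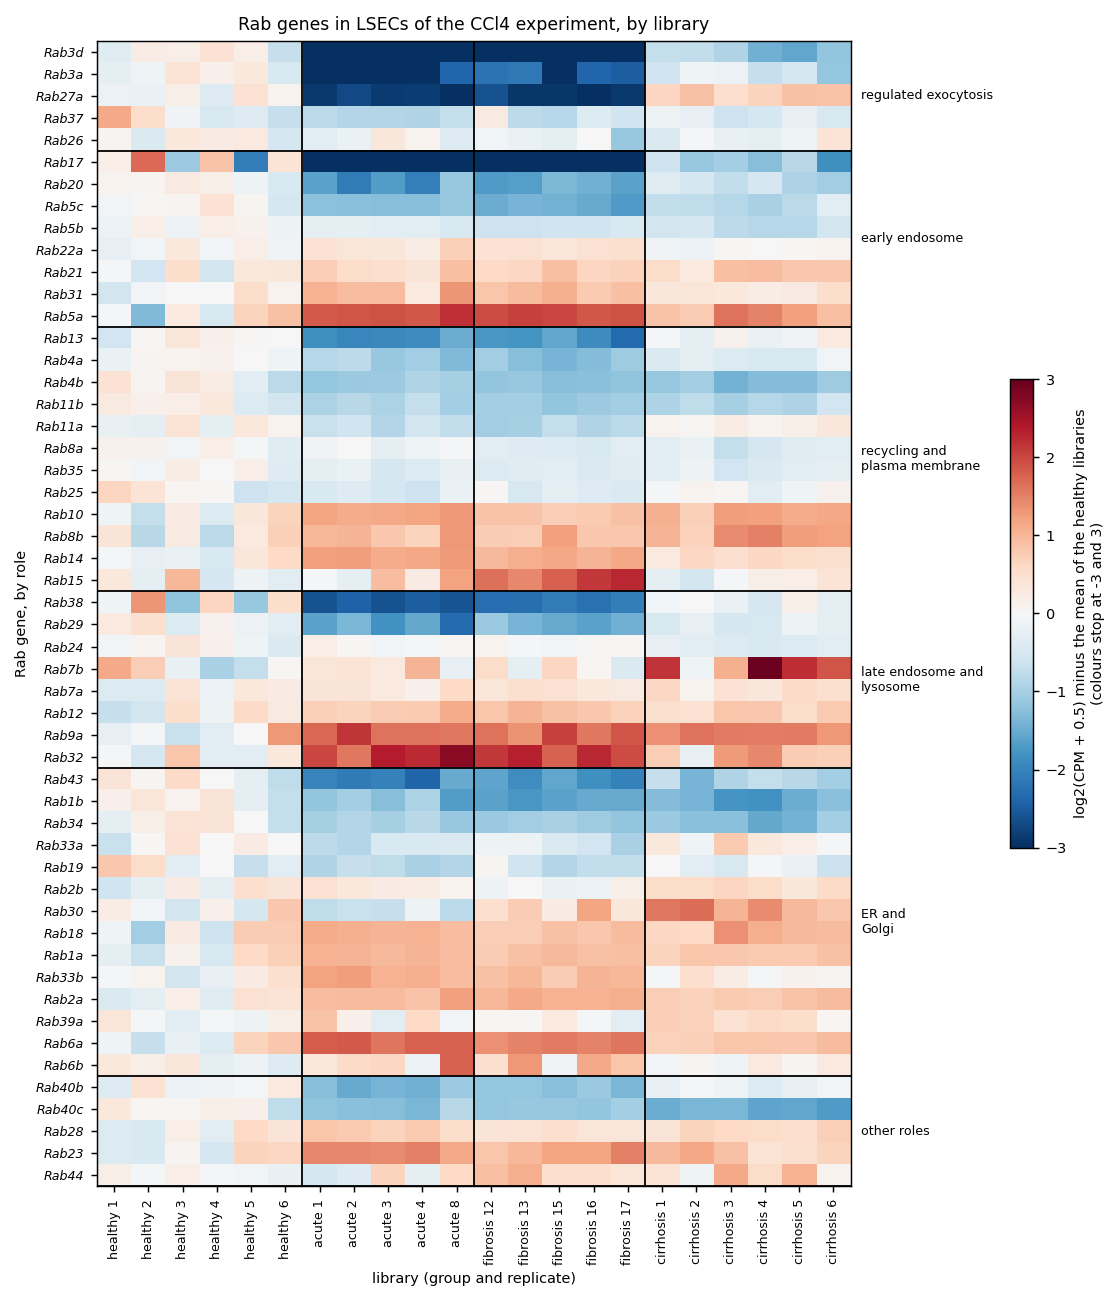
Each row is 1 of the 52 tested Rab genes, ordered by role, and each column 1 of the 22 CCl4 libraries. Colour gives log2(CPM + 0.5) minus the mean of the healthy libraries, with colours stopping at -3 and 3. The acute and fibrosis columns resemble each other and hold the deepest falls, in Rab3a, Rab3d, Rab27a, Rab17 and Rab38, while the healthy columns differ among themselves in many rows.

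By pattern over the stages, 12 Rab genes were higher in all 3 comparisons (Rab1a, Rab2a, Rab5a, Rab6a, Rab8b, Rab9a, Rab10, Rab12, Rab18, Rab21, Rab23 and Rab32) and 10 were lower in all 3 (Rab1b, Rab3a, Rab3d, Rab4b, Rab5c, Rab11b, Rab20, Rab34, Rab40c and Rab43). Lower in acute injury and fibrosis but not called in cirrhosis were 7 (Rab4a, Rab11a, Rab13, Rab17, Rab29, Rab38 and Rab40b), and higher in both but not called in cirrhosis were 3 (Rab14, Rab31 and Rab33b). Rab27a alone was lower at both early stages and higher in cirrhosis. The other calls were Rab5b (lower), Rab7b and Rab39a (higher) in cirrhosis only, Rab6b, Rab15 and Rab44 (higher) in fibrosis only, Rab30 (higher) in fibrosis and cirrhosis, and Rab28 (higher) and Rab33a (lower) in acute injury only. Rab2b, Rab7a, Rab8a, Rab22a, Rab24, Rab26 and Rab35 were tested in all 3 and never called, and Rab19, Rab25 and Rab37 were tested against healthy rats in cirrhosis only and not called.

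**Figure D2:**
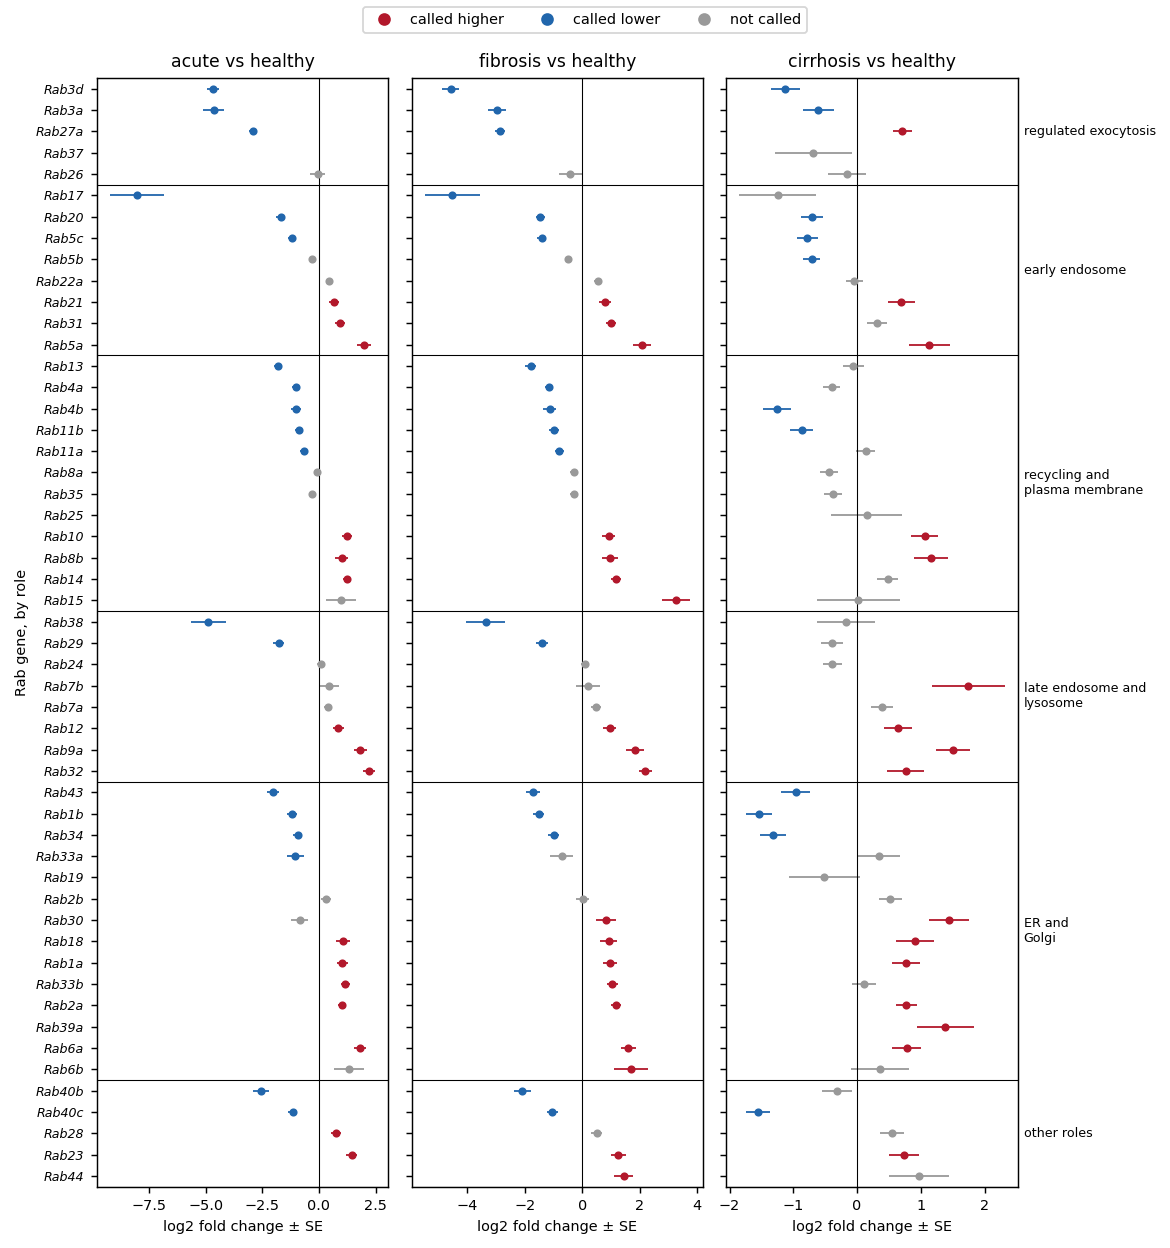
Points are limma-voom log2 fold changes against healthy LSECs with bars of 1 standard error, in 1 panel each for acute injury, fibrosis and cirrhosis, with Rab genes ordered by role. Red marks genes called higher, blue lower and grey not called. The x axes differ between panels, since the values span -8.03 to 2.22 in acute injury and -1.56 to 1.75 in cirrhosis.

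Rabs of regulated exocytosis dock secretory vesicles, granules and multivesicular bodies at the plasma membrane. Of the 8 listed, 4 could be tested in acute injury and fibrosis and 3 of these, Rab27a, Rab3d and Rab3a, fell at both stages. The share of all genes called lower was 37.9% in acute injury and 34.9% in fibrosis. The median log2 fold change of the 4 was -3.78 in acute injury and -2.93 in fibrosis. In cirrhosis, Rab27a was higher and Rab3a and Rab3d lower than in healthy rats, with 5 members tested.

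The upstream 250 bases of Rab27a and Rab3d are shown because both genes fell together at the early stages and parted in cirrhosis. They are RefSeq sequences in the GRCr8 assembly, read 5′ to 3′ on the gene's strand and ending at the base before the annotated start, Rab27a at chr8:82663123-82663372 on the plus strand and Rab3d at chr8:28725268-28725517 on the minus strand. Capitals mark matches on either strand to the GC box GGGCGG, a motif of many promoters without a TATA box.
Rab27a: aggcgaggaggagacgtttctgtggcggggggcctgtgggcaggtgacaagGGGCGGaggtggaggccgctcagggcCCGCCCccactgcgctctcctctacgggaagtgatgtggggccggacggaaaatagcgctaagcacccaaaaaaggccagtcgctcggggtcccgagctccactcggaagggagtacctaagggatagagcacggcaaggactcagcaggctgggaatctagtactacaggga
Rab3d: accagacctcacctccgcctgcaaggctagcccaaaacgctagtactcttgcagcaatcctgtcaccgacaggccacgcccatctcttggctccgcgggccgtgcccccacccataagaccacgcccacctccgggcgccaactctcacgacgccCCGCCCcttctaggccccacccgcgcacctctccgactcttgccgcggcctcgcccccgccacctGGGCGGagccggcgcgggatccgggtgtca
Each holds 2 GC boxes, at -199 and -173 in Rab27a and at -95 and -30 in Rab3d, and the GC content was 63.6% in Rab27a and 70.0% in Rab3d. None of the other motifs searched (E box, CCAAT box, ETS core, TATA box and AP-1 site, with their letters given below) was found in these windows.

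Rab27a (ENSRNOG00000052499), which docks multivesicular bodies and endothelial secretory granules, had 46.0, 58.9 and 81.8 CPM as the lowest, median and highest of the 6 healthy libraries. The 5 acute libraries held 7.58, 8.73, 7.72, 7.86 and 6.88 CPM, and the 5 fibrosis libraries 9.36, 7.50, 7.45, 6.75 and 7.59 CPM. The cirrhotic libraries ranged from 85.3 to 111 CPM with a median of 101. Every acute and fibrosis library thus lay far under every healthy one, and every cirrhotic library above every healthy one. The log2 fold change against healthy rats was -2.91 (SE 0.18, adjusted p = 4.37e-08, limma-voom) in acute injury, -2.87 (SE 0.18, adjusted p = 6.01e-08) in fibrosis and 0.71 (SE 0.15, adjusted p = 0.00175) in cirrhosis. Without the hepatocyte-rich libraries the value in cirrhosis was 0.32 and no longer called (adjusted p = 0.245).

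Rab3d, another Rab of secretory granules, had 54.1, 100 and 118 CPM as the lowest, median and highest healthy values. It held 3.14, 3.38, 2.95, 2.49 and 5.54 CPM in the acute and 4.17, 5.45, 3.09, 3.29 and 2.01 CPM in the fibrosis libraries, and 29.3 to 53.5 CPM (median 42.6) in cirrhosis. All injured groups lay below the healthy libraries without overlap, and the cirrhotic libraries lay between the healthy and the early ones. Its log2 fold change was -4.68 (SE 0.28, adjusted p = 2.85e-08, limma-voom) in acute injury, -4.58 (SE 0.29) in fibrosis and -1.12 (SE 0.22, adjusted p = 0.00121) in cirrhosis.

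Rab3a, known from synaptic and endocrine vesicles, was low throughout, with 4.47 to 8.59 CPM (median 6.46) in healthy rats. The acute libraries held 0.271, 0.162, 0.300, 0.0691 and 0.828 CPM and the fibrosis libraries 0.986, 1.04, 0.325, 0.816 and 0.745 CPM, none of them reaching a healthy library. In cirrhosis it was 2.57 to 5.77 CPM (median 4.18), which overlapped with healthy rats. Log2 fold changes were -4.64 (SE 0.47, adjusted p = 2.15e-06, limma-voom), -2.98 (SE 0.32) and -0.61 (SE 0.24, adjusted p = 0.0441) in the order of the stages. The call in cirrhosis was lost without cirrhosis 1, 4, 5 or 6 or healthy 2, 3, 4 or 5, with adjusted p between 0.0505 and 0.0871. Expected counts of Rab3a were not whole numbers in any library, so part of its reads was shared with other genes.

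Among the remaining exocytic Rabs, Rab26, linked to secretory granule maturation, was tested and not called at any stage, with a log2 fold change of -0.06 (SE 0.32) in acute injury, -0.43 (SE 0.40) in fibrosis and -0.16 (SE 0.30) in cirrhosis. Rab37, a mast cell granule Rab, was at 0.103 to 1.62 CPM in healthy rats and was tested in cirrhosis only among the comparisons with healthy rats (-0.69, SE 0.61). Rab27b, the closest relative of Rab27a, had 18 counts over all 6 healthy and 54 over all 6 cirrhotic libraries, and Rab3b had 7 and 5, too few to compare.

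**Figure D3:**
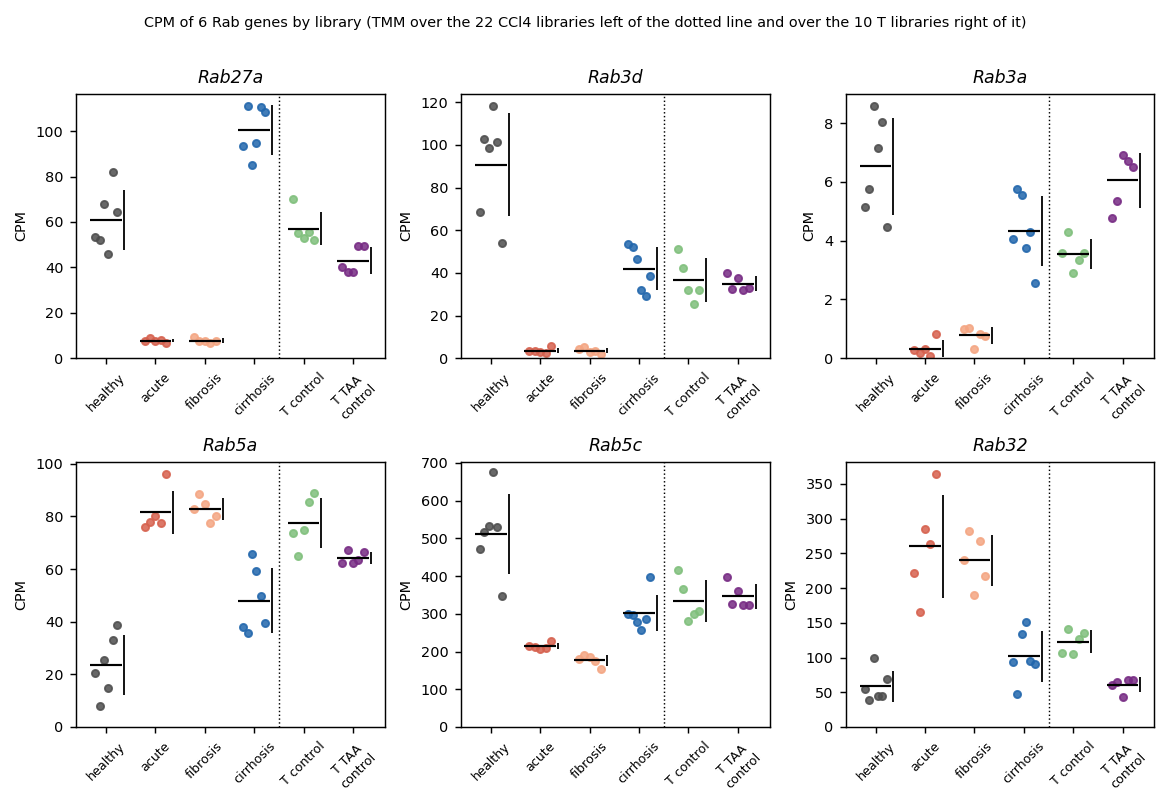
Each point is the CPM of 1 library for Rab27a, Rab3d, Rab3a, Rab5a, Rab5c and Rab32 in the 6 groups, with a line at the mean and a bar of 1 SD. The dotted line separates the TAA experiment, which was scaled on its own. Acute and fibrosis libraries of Rab27a, Rab3d and Rab3a lie below all healthy ones, and those of Rab5a and Rab32 above all healthy ones.

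Rabs of the early endosome govern fusion and sorting of freshly internalised cargo. All 8 listed were tested, with 3 higher and 3 lower in acute injury, 3 and 3 in fibrosis, and 2 and 3 in cirrhosis. Over all genes the shares were 35.5% higher and 37.9% lower, 35.3% and 34.9%, and 27.1% and 24.7%. The Rab5 family itself divided. Rab5a rose at each stage, Rab5c fell at each stage, and Rab5b was called lower in cirrhosis only.

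The upstream bases of this pair are shown because the genes encode close relatives and moved in opposite directions. Rab5a lies at chr9:6720877-6721126 on the plus strand and Rab5c at chr10:86166450-86166699 on the minus strand of GRCr8, again from RefSeq. Capitals mark the GC box GGGCGG in both, an E box CACGTG in Rab5a and a CCAAT box CCAAT, read from the opposite strand, in Rab5c.
Rab5a: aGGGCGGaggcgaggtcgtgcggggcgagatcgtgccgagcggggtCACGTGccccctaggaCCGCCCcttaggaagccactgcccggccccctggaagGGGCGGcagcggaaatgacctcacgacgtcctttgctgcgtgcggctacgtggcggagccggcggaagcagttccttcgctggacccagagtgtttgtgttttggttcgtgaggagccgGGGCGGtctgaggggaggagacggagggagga
Rab5c: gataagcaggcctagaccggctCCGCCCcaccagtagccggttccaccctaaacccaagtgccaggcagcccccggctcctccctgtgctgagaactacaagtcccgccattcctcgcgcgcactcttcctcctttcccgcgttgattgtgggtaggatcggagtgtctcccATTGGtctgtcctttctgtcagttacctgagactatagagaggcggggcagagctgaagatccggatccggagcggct
Rab5a holds 4 GC boxes, at -249, -188, -151 and -32, and an E box at -204. Rab5c holds 1 GC box at -228 and a CCAAT box at -78. GC content was 68.4% with 26 CpG in Rab5a and 60.4% with 15 CpG in Rab5c.

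Rab5a, the best studied organiser of early endosome fusion, had 8.06, 22.9 and 38.6 CPM as the lowest, median and highest healthy values. It held 75.9, 78.1, 80.0, 77.5 and 96.2 CPM in the acute libraries, 82.8, 88.3, 84.7, 77.5 and 80.1 CPM in the fibrosis libraries and 35.8 to 65.6 CPM (median 44.6) in cirrhosis. Every acute and fibrosis library exceeded every healthy one, and the cirrhotic libraries overlapped with the healthy ones at their lower end. The log2 fold change was 1.99 (SE 0.33, adjusted p = 0.000129, limma-voom) in acute injury, 2.07 (SE 0.32) in fibrosis and 1.13 (SE 0.33, adjusted p = 0.00994) in cirrhosis. Without the hepatocyte-rich libraries the cirrhosis value was 0.85 with an adjusted p of 0.0591.

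Rab5c had 348, 524 and 676 CPM as the lowest, median and highest healthy values. Its acute libraries held 215, 212, 206, 209 and 227 CPM, its fibrosis libraries 180, 191, 187, 175 and 154 CPM, and its cirrhotic ones 258 to 397 CPM (median 291). Acute and fibrosis libraries all lay under the healthy ones, with overlap in cirrhosis through cirrhosis 6. Log2 fold changes were -1.2 (SE 0.15, adjusted p = 1.62e-05, limma-voom), -1.42 (SE 0.15) and -0.78 (SE 0.17, adjusted p = 0.00196). Rab5b, with 176 to 231 CPM in healthy rats, was -0.30 (SE 0.13) in acute injury and -0.49 (SE 0.12) in fibrosis, under the fold threshold, and -0.72 (SE 0.13, adjusted p = 0.000664) in cirrhosis, where the groups did not overlap. Expected counts were not whole in all 32 libraries for Rab5a and in 30 for Rab5c, so both share reads with other genes, while those of Rab5b were whole.

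The log2 ratio of Rab5a to Rab5c within a library, which does not depend on library scaling, was -6.00 to -3.17 in healthy rats (mean -4.60). It was -1.50 to -1.24 in acute injury (mean -1.40) and -1.18 to -0.94 in fibrosis (mean -1.10), above every healthy library, and -3.33 to -2.08 in cirrhosis (mean -2.68), which overlapped with healthy rats. The mean difference from healthy rats was 3.20, 3.5 and 1.92.

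Of the other early endosomal Rabs, Rab31, which works between the trans-Golgi network and endosomes, rose in acute injury (0.94, SE 0.21) and fibrosis (1.001, SE 0.16) and was 0.31 (SE 0.15, adjusted p = 0.0963, limma-voom) in cirrhosis. Rab20, a Rab of phagosome and endosome maturation, fell in all 3, from 92.2 to 153 CPM in healthy rats to 29.4 to 58.0 in acute, 38.6 to 50.1 in fibrosis and 61.8 to 99.0 in cirrhotic libraries. Its log2 fold changes were -1.70, -1.47 and -0.71. With upper-quartile scaling the cirrhosis values of Rab20 (-0.56) and Rab5b (-0.57) went under the fold threshold, as did those of Rab20 (-0.36), Rab5b (-0.37) and Rab5c (-0.43) with library-size CPM.

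Rab17, a Rab of polarised epithelial cells, varied with the hepatocyte markers among the healthy libraries. Healthy libraries held 1.33 to 24.3 CPM (median 9.04), highest in healthy 2 with a hepatocyte marker sum of 18470 CPM and lowest in healthy 5 with 745 CPM. Acute libraries held 0 CPM in 3 of 5 and 5 counts in all, against 1789 counts over the healthy libraries, and fibrosis libraries 0.172 to 0.338 CPM. Fibrosis 16, with a hepatocyte marker sum of 4293 CPM, held 0.338 CPM of Rab17, less than healthy 5. The part of hepatocyte RNA in the Rab17 differences between groups was not tested further than by the fit given below. The cirrhotic libraries held 1.65 to 4.46 CPM with no call (-1.25, adjusted p = 0.0896, limma-voom), which became a call without healthy 5 (-1.73, adjusted p = 0.00542), with edgeR (adjusted p = 0.0161) and with DESeq2 (adjusted p = 0.00264). It had the opposite sign without the hepatocyte-rich libraries (0.24, adjusted p = 0.720).

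**Figure D4:**
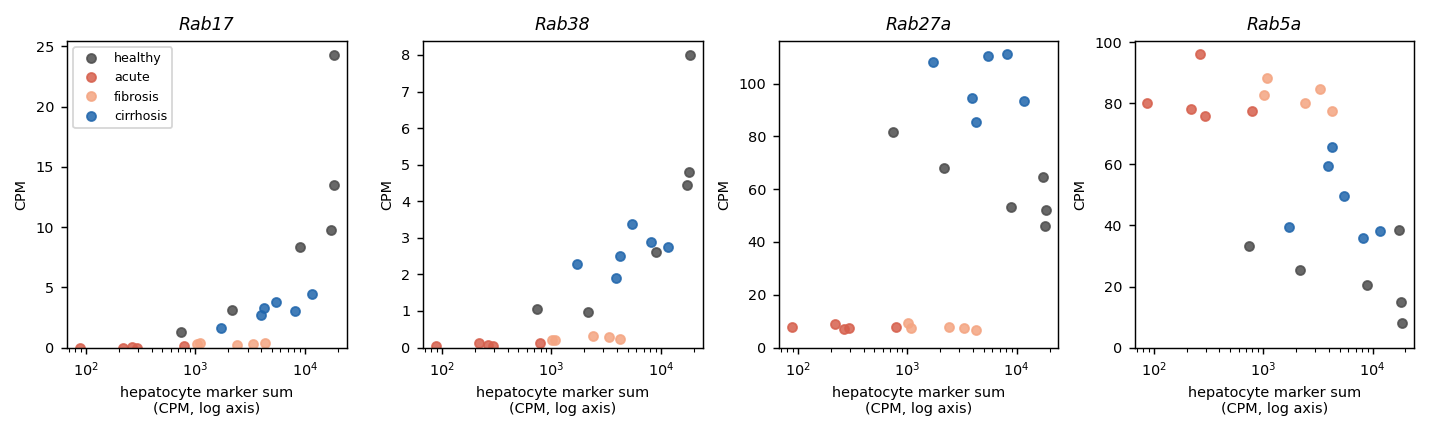
Points are the 22 CCl4 libraries, with the summed CPM of 8 hepatocyte markers on a log x axis and the CPM of Rab17, Rab38, Rab27a or Rab5a on the y axis. Rab17 reached 24.3 CPM and Rab38 7.99 CPM in the healthy library with the largest hepatocyte sum. Rab27a was 6.75 to 9.36 CPM in all acute and fibrosis libraries over sums from 87.9 to 4293 CPM.

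Rabs of recycling and delivery to the plasma membrane return receptors and carry newly made cargo to the surface. Of 11 tested in acute injury 3 were higher and 5 lower, beside 35.5% and 37.9% of all genes. The counts were 4 and 5 of 11 in fibrosis (35.3% and 34.9%) and 2 and 2 of 12 in cirrhosis (27.1% and 24.7%). The fast-recycling Rab4a and Rab4b and the recycling-endosome Rab11a and Rab11b all fell in acute injury and fibrosis, while Rab10 and Rab8b, which drive exocytic carriers, rose at each stage.

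Rab4a had 14.4 to 18.2 CPM in healthy libraries, 6.27 to 9.35 in acute and 5.98 to 7.81 in fibrosis libraries, with log2 fold changes of -1.04 (SE 0.15) and -1.18 (SE 0.14), and 11.6 to 15.5 CPM in cirrhosis (-0.40, SE 0.13, under the fold threshold). Rab4b had 26.1 to 62.5 CPM in healthy libraries and fell by 1.03, 1.14 and 1.26 on the log2 scale at the successive stages, with no overlap at any of them. Rab11a fell by 0.66 (SE 0.16) in acute injury and 0.81 (SE 0.16) in fibrosis and was 0.14 (SE 0.15) in cirrhosis, whereas Rab11b fell by 0.87, 0.99 and 0.87. The acute call of Rab11a went under the fold threshold without healthy 3 (-0.53) or healthy 6 (-0.55), and the cirrhosis call of Rab11b was lost without the hepatocyte-rich libraries (-0.74, adjusted p = 0.0531, limma-voom). The a-to-b log2 ratio differed from healthy rats without overlap only in cirrhosis for both pairs, by 1.01 for Rab11a to Rab11b and by 0.86 for Rab4a to Rab4b.

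Rab10 had 42.0 to 110 CPM in healthy rats and 150 to 170 in acute, 116 to 127 in fibrosis and 114 to 164 CPM in cirrhotic libraries, all above the healthy range. Its log2 fold changes were 1.23 (SE 0.23), 0.92 (SE 0.22) and 1.06 (SE 0.21), the last with an adjusted p of 0.00123 from limma-voom. Rab8b rose by 0.998, 0.96 and 1.16, and its close relative Rab8a was not called (-0.07, -0.29 and -0.44). Rab35, a Rab of fast recycling and vesicle release, was not called at any stage, with values of -0.29, -0.29 and -0.38, except that it was lower in cirrhosis without the hepatocyte-rich libraries (-0.68, adjusted p = 0.030).

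Rab15, which slows recycling from endosomes, was near the limit of detection in healthy rats (0.0787 to 1.14 CPM) and in acute injury (0.189 to 1.40 CPM). The fibrosis libraries held 2.11, 1.75, 2.37, 3.10 and 3.47 CPM and the cirrhotic ones 0.0629 to 0.599 CPM. The fibrosis libraries thus lay above all others of the CCl4 experiment. The rise against healthy rats was 3.25 (SE 0.49, adjusted p = 7.87e-05, limma-voom).

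Rabs of late endosomes and lysosomes carry cargo to degradation, to the trans-Golgi network or to lysosome-related organelles. Of 8 tested, 3 were higher and 2 lower in acute injury and in fibrosis, and 4 were higher in cirrhosis. Beside these, 35.5% of all genes were higher and 37.9% lower in acute injury, 35.3% and 34.9% in fibrosis, and 27.1% higher in cirrhosis. Rab7a, which drives fusion of late endosomes with lysosomes, was not called, with 303 to 535 CPM in healthy, 446 to 604 in acute, 483 to 558 in fibrosis and 432 to 614 in cirrhotic libraries. Its log2 fold changes were 0.40, 0.47 and 0.39, each with a standard error of 0.17 to 0.18. With library-size CPM it was called higher at each stage (0.81, 0.86 and 0.74), and with voom quality weights in fibrosis (0.63) and cirrhosis (0.59).

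Rab9a, which returns cargo from late endosomes to the trans-Golgi network, had 3.26, 4.86 and 14.3 CPM as the lowest, median and highest healthy values. Its acute libraries held 19.2, 25.9, 17.9, 18.0 and 17.5 CPM, its fibrosis libraries 17.9, 14.8, 24.4, 17.4 and 21.7 CPM, and its cirrhotic ones 14.3 to 18.0 CPM. Except for healthy 6, the healthy libraries lay far below all others. Log2 fold changes were 1.83 (SE 0.31, adjusted p = 0.000147, limma-voom), 1.85 (SE 0.31) and 1.51 (SE 0.26, adjusted p = 0.000571).

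Rab32 and Rab38, close relatives that supply lysosome-related organelles, parted. Rab32 had 38.8 to 99.2 CPM in healthy rats (median 49.5), 222, 166, 285, 263 and 365 CPM in the acute, 241, 282, 191, 268 and 217 CPM in the fibrosis and 47.6 to 152 CPM (median 93.7) in the cirrhotic libraries. The acute and fibrosis libraries were all above the healthy ones and the cirrhotic ones overlapped with them. It rose by 2.22 (SE 0.26, adjusted p = 9.55e-06, limma-voom), 2.19 (SE 0.23) and 0.76 (SE 0.29, adjusted p = 0.0381). The last call was lost without cirrhosis 3 or 4 or healthy 1, 2, 4 or 5 (adjusted p 0.0605 to 0.0840) and without the hepatocyte-rich libraries (0.86, adjusted p = 0.117). Rab38 had 0.977 to 7.99 CPM in healthy rats, 0.0541 to 0.135 in acute, 0.197 to 0.315 in fibrosis and 1.89 to 3.39 CPM in cirrhotic libraries. The acute libraries held 16 counts in all. Rab38 was 7.99, 4.8 and 4.45 CPM in healthy 2, 4 and 6, with hepatocyte marker sums of 18470, 18320 and 17520 CPM. Healthy 1, 3 and 5, with sums of 8980, 2168 and 745 CPM, held 2.61, 0.977 and 1.05 CPM. Fibrosis 16, with a sum of 4293 CPM, held 0.225 CPM. Without the hepatocyte-rich libraries the cirrhosis value of Rab38 was 1.06 (adjusted p = 0.0612, limma-voom), not called. The part of hepatocyte RNA was not tested further.

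Rab7b, a Rab of transport from endosomes to the trans-Golgi network, had 2.20 to 11.1 CPM in healthy rats and 4.32, 21.1 and 39.9 CPM as the lowest, median and highest cirrhotic values. The groups overlapped, cirrhosis 2 being the lowest of its group. It was higher in cirrhosis by 1.75 (SE 0.57, adjusted p = 0.0182, limma-voom) and not called in acute injury (0.46, SE 0.40) or fibrosis (0.20, SE 0.42). It was also called higher in acute injury without the hepatocyte-rich libraries (1.11, adjusted p = 0.035). Summed macrophage markers were 495 to 2991 CPM in healthy and 949 to 2847 CPM in cirrhotic libraries, and of the 9 markers 0 were called in cirrhosis by limma-voom, Vsig4 being nearest (1.43, adjusted p = 0.0546). Cirrhosis 1, 4 and 5 had sums of 2847, 2022 and 2003 CPM and Rab7b at 23.1, 39.9 and 24.2 CPM. Cirrhosis 2, 3 and 6 had sums of 1072, 949 and 1051 CPM and Rab7b at 4.32, 10.5 and 19.15 CPM. Healthy 1, 2 and 6 had sums of 2807, 2473 and 1343 CPM and Rab7b at 11.1, 8.30 and 4.94 CPM. Healthy 3 and 5 had sums of 495 and 547 CPM and Rab7b at 4.03 and 2.73 CPM. Healthy 4, with a sum of 2991 CPM, held the lowest Rab7b (2.20 CPM). The part of macrophage RNA in the Rab7b rise was not tested.

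Rabs of the endoplasmic reticulum and Golgi carry newly made protein through the secretory pathway. Of 12 tested, 5 were higher and 4 lower in acute injury and 7 higher and 3 lower in fibrosis, and of 14 tested in cirrhosis 6 were higher and 3 lower. For all genes the shares were 35.5% and 37.9%, 35.3% and 34.9%, and 27.1% and 24.7%. The median log2 fold change of the tested members was 0.67, 0.88 and 0.44. Rab1a and Rab1b, near-identical Rabs of transport from the endoplasmic reticulum to the Golgi, moved apart at each stage.

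Rab1a had 57.1, 87.7 and 150 CPM as the lowest, median and highest healthy values, and 191, 186, 180, 185 and 174 CPM in the acute, 156, 170, 182, 169 and 171 CPM in the fibrosis and 146 to 170 CPM in the cirrhotic libraries. It rose by 1.03 (SE 0.25), 0.97 (SE 0.25) and 0.77 (SE 0.22, adjusted p = 0.00953, limma-voom). Only the cirrhotic libraries reached down into the healthy range. The cirrhosis value was 0.43 and not called without the hepatocyte-rich libraries (adjusted p = 0.150).

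Rab1b had 91.0 to 194 CPM in healthy rats and 46.2 to 77.2 in acute, 44.2 to 52.4 in fibrosis and 42.0 to 62.0 CPM in cirrhotic libraries, below the healthy range at each stage. It fell by 1.195 (SE 0.21), 1.51 (SE 0.19) and 1.55 (SE 0.20, adjusted p = 0.000137, limma-voom) on the log2 scale. The log2 ratio of Rab1a to Rab1b was -1.75 to 0.73 in healthy libraries, 1.26 to 1.91 in acute, 1.68 to 1.94 in fibrosis and 1.27 to 1.92 in cirrhotic ones, without overlap with healthy rats at any stage. Expected counts of both genes were whole in every library.

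**Figure D5:**
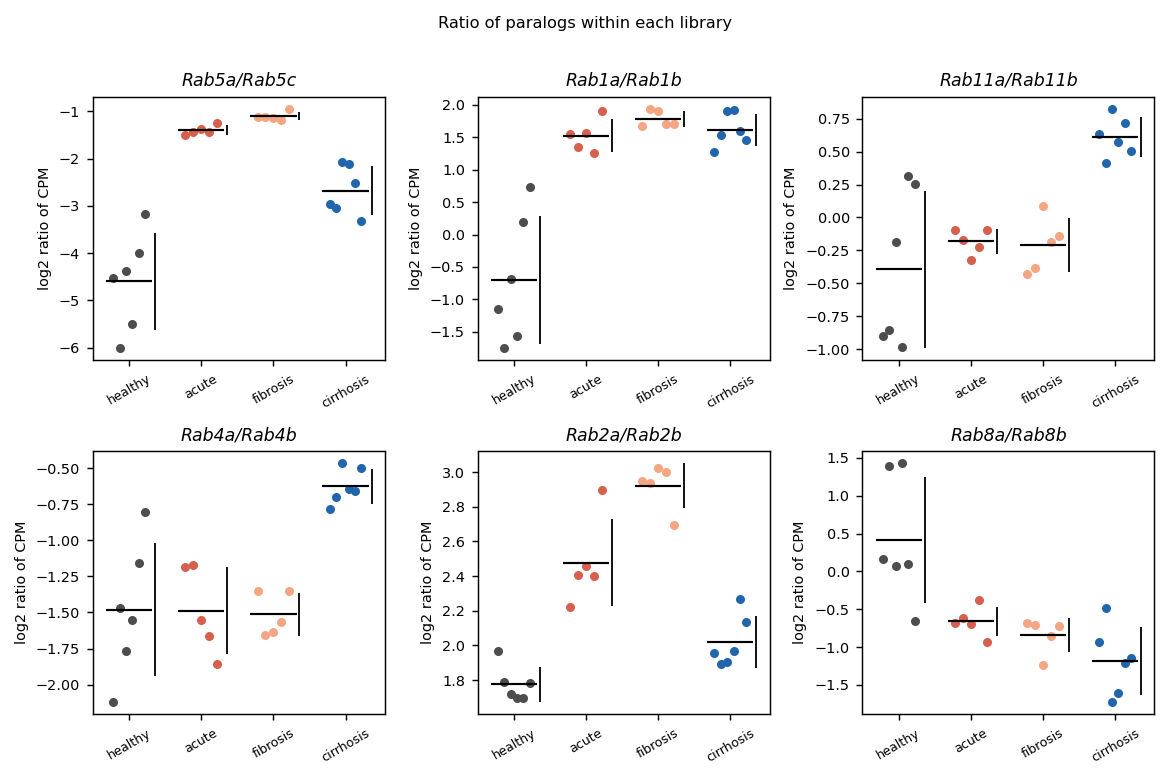
Points are the log2 ratio of CPM of close relatives within 1 library (Rab5a to Rab5c, Rab1a to Rab1b, Rab11a to Rab11b, Rab4a to Rab4b, Rab2a to Rab2b and Rab8a to Rab8b) in the 4 CCl4 groups, with a line at the mean and a bar of 1 SD. Rab1a to Rab1b lies above all healthy libraries at the 3 stages, Rab5a to Rab5c in acute injury and fibrosis, and Rab11a to Rab11b and Rab4a to Rab4b in cirrhosis alone.

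Rab6a, which carries cargo back through the Golgi, had 32.5 to 93.3 CPM in healthy and 162 to 190 CPM in acute, 137 to 162 CPM in fibrosis and 86.1 to 102 CPM in cirrhotic libraries, and rose by 1.80 (SE 0.26), 1.60 (SE 0.26) and 0.78 (SE 0.23), the last not called without the hepatocyte-rich libraries (0.62, adjusted p = 0.128, limma-voom). Its neuronal relative Rab6b held 0.195 to 1.35 CPM in fibrosis and 0.0776 to 0.448 CPM in healthy rats, and was called in fibrosis (1.68, SE 0.59, adjusted p = 0.0214, limma-voom). That call was lost without healthy 6 or fibrosis 13 or 16 (adjusted p 0.0514 to 0.0599) and without the hepatocyte-rich libraries (1.32, adjusted p = 0.205), and in acute injury edgeR (1.60, adjusted p = 0.0345) and DESeq2 (1.68, adjusted p = 0.0203) called Rab6b higher. Rab34, a Rab of the Golgi, lysosome positioning and cilia, fell by 0.94, 1.0 and 1.32 without overlap at any stage.

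Rab30, a Golgi Rab, had 0.895 to 3.05 CPM in healthy, 0.669 to 1.34 in acute, 1.92 to 4.14 in fibrosis and 3.05 to 6.04 CPM in cirrhotic libraries. It was -0.85 (adjusted p = 0.0574, limma-voom) in acute injury, where edgeR (adjusted p = 0.0369) and DESeq2 (adjusted p = 0.033) called it lower and where it was 0.04 (adjusted p = 0.940) without the hepatocyte-rich libraries. It was 0.84 (adjusted p = 0.0459) in fibrosis and 1.44 (SE 0.31, adjusted p = 0.00191) in cirrhosis. Its call in fibrosis was lost without healthy 2, 3, 4 or 5 or fibrosis 12, 13 or 16 (adjusted p 0.0597 to 0.114). That call was also lost with edgeR (0.78, adjusted p = 0.0654) and without a low-count filter (0.83, adjusted p = 0.061, limma-voom). Rab33a, a Golgi relative of Rab33b, was lower in acute injury by 1.05 (SE 0.38), a call lost without healthy 3 or acute 1 or 2 (adjusted p 0.0610 to 0.0731), and without the hepatocyte-rich libraries it was called lower in fibrosis as well (-1.27, adjusted p = 0.0401). Rab39a was higher in cirrhosis by 1.38 (SE 0.45, adjusted p = 0.0178) at 0.2 to 0.607 CPM, and not called without the hepatocyte-rich libraries (2.02, adjusted p = 0.0765).

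Among the Rabs of other roles, Rab23, known from Hedgehog signalling, rose from 9.17 to 21.5 CPM in healthy rats to 30.1 to 39.4 in acute, 24.4 to 39.0 in fibrosis and 18.0 to 30.7 CPM in cirrhotic libraries (1.45, 1.25 and 0.74). The last value was 0.24 and not called (adjusted p = 0.504, limma-voom) without the hepatocyte-rich libraries. Rab40c, which carries a SOCS box and joins a ubiquitin ligase, had 42.7 to 92.1 CPM in healthy rats and 28.1 to 41.2 in acute, 31.7 to 35.8 in fibrosis and 22.2 to 27.9 CPM in cirrhotic libraries. No injured library reached a healthy one, and the fall in cirrhosis was 1.56 on the log2 scale (SE 0.19, adjusted p = 9.53e-05).

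How Rab genes differed between successive stages was asked by comparing fibrosis with acute injury and cirrhosis with fibrosis. Between fibrosis and acute injury, 3 of 45 Rab genes were higher and 0 lower (6.67%, beside 11% of all genes, 10.2% higher and 0.732% lower). At an unadjusted p under 0.05 from limma-voom, with no fold threshold, 7 of 45 Rab genes were higher and 7 lower. All genes were not counted at that threshold. With the adjusted p and fold thresholds, edgeR and DESeq2 called 0 Rab genes lower. Rab15 rose by 2.33 (SE 0.46, adjusted p = 0.00852, limma-voom) and Rab30 by 1.73 (SE 0.29, adjusted p = 0.00540), both without overlap. Rab3a rose by 1.72 (SE 0.55, adjusted p = 0.0493), with fibrosis 15, 16 and 17 inside the acute range. That call was lost without acute 1, 2, 3 or 4 or fibrosis 12, 13, 16 or 17 (adjusted p 0.0723 to 0.114), and was not made by edgeR (0.0985) or DESeq2 (0.0811).

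Between cirrhosis and fibrosis, 17 of 52 Rab genes were higher and 8 lower (48.1%, beside 63.8% of all genes, 34.3% higher and 29.5% lower), and 27 did not overlap (51.9%, beside 62.9%). Rab27a and Rab3d had the largest rises. Rab27a rose by 3.63 (SE 0.12, adjusted p = 2.60e-10, limma-voom), Rab3d by 3.52 (SE 0.28) and Rab3a by 2.43 (SE 0.34), each without overlap. Rab38 rose by 3.26 (SE 0.27) and Rab17 by 3.34 (SE 0.39), and summed hepatocyte markers were 1713 to 11680 CPM in cirrhosis and 1027 to 4293 CPM in fibrosis.

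The falls from fibrosis to cirrhosis were Rab15 (-3.20), Rab32 (-1.37), Rab6b (-1.28), Rab5a (-0.88), Rab33b (-0.87), Rab6a (-0.76), Rab14 (-0.64) and Rab31 (-0.63). Without the hepatocyte-rich libraries 5 Rab genes were called lower. Rab6b (-1.10, adjusted p = 0.159, limma-voom) and Rab31 (-0.58, under the fold threshold) were among those no longer called. The rise of Rab30 was also lost (0.53, adjusted p = 0.098, limma-voom). In that fit 60.8% of all genes were called, 54.4% of them higher. Of the 18 Rab genes that were lower than healthy at both early stages, 13 were higher in cirrhosis than in fibrosis, among them Rab27a, Rab3d, Rab3a, Rab5c (0.70, SE 0.11), Rab11a (0.997, SE 0.08) and Rab4a (0.83, SE 0.11), and 5 were not called (Rab1b, Rab4b, Rab11b, Rab34 and Rab40c). Of the 15 that were higher than healthy at both, 6 were lower in cirrhosis than in fibrosis and 9 were not called. Among all genes, 3561 of the 4670 lower at both early stages were higher in cirrhosis than in fibrosis (76.3%, beside 72.2% of the Rab genes), and 3203 of the 4590 higher at both were lower (69.8%, beside 40% of the Rab genes). These comparisons share the healthy and fibrosis libraries, so the division is a description, and the return of the lower Rab genes was near that of all genes. Single calls were followed over libraries left out for 38 named Rab genes, which do not include Rab14. Among these 38, calls that depended on 1 library were those of Rab7b (1.59, lost without cirrhosis 1, 5 or 6 or any fibrosis library, adjusted p 0.0516 to 0.0843), Rab6b (lost without cirrhosis 1 or 3 or fibrosis 13 or 16), Rab30 (0.67, lost without fibrosis 12, 15 or 17) and Rab31 (under the fold threshold without cirrhosis 4). Over all tested Rab genes, leaving out 1 library gave 15 to 19 higher and 6 to 8 lower. These fits called 9290 to 9808 of all genes, 53.4% to 54.1% of them higher.

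In the TAA experiment, 4 of 46 Rab genes were higher and 2 lower in the TAA control group than in the T control group (13%, beside 27.6% of all genes), and 12 did not overlap (26.1%, beside 35.1%). Rab20 held 59.3, 49.5, 62.2, 47.9 and 47.1 CPM in T control and 92.0, 93.8, 85.3, 107 and 106 CPM in TAA control libraries, and was higher by 0.87 (SE 0.10, adjusted p = 8.87e-05, limma-voom). Rab3a held 3.58, 4.31, 2.90, 3.35 and 3.57 CPM against 4.76, 5.36, 6.92, 6.72 and 6.53 CPM (0.75, SE 0.15, adjusted p = 0.00212). Neither gene overlapped between the groups. Rab40c was higher by 0.71 without overlap, and Rab33a by 0.73 with overlap.

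Rab30 held 3.15, 3.21, 2.50, 3.87 and 6.00 CPM in T control and 1.13, 0.776, 1.22, 0.469 and 0.712 CPM in TAA control libraries, lower by 2.12 on the log2 scale (log2 fold change -2.12, SE 0.34, adjusted p = 0.000594, limma-voom). Rab32 held 106, 141, 105, 127 and 135 CPM against 61.2, 64.7, 42.8, 67.3 and 68.3 CPM (log2 fold change -1.02, SE 0.14, adjusted p = 0.000250). Both were without overlap. Rab27a had 52.0 to 70.1 CPM in T control and 37.8 to 49.4 CPM in TAA control libraries, a difference of -0.42 (SE 0.11) that did not overlap but stayed under the fold threshold. Markers of other cells moved between these groups too. Stellate cell markers summed to 2052 to 5263 CPM in T control and 344 to 542 CPM in TAA control libraries (7 of 9 lower) and hepatocyte markers to 1492 to 3970 and 463 to 1152 CPM (5 of 8 lower). Macrophage markers summed to 32.7 to 210 and 109 to 585 CPM (Lyz2 and Csf1r higher), lymphocyte markers to 3.74 to 28 and 20.6 to 46.1 CPM (Nkg7 and Gzmb higher), and cholangiocyte markers to 4.65 to 8.63 and 1.56 to 3.20 CPM (4 lower). Of the 13 LSEC markers 4 were higher. The part of these markers in the differences was not tested. TAA control replicates 14 and 15 were closer to each other than other replicate pairs (chi-square per degree of freedom 3.05 against at least 25.2), and the 6 calls were the same when they were counted as 1 library.

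The genes that switch and read Rabs were described by lists of 7 prenylation and recycling genes, 30 GEFs, 34 GAPs and 48 effector entries found in the files. Prenylation and recycling genes divided in acute injury, with 4 higher and 2 lower of 7, beside 35.5% higher and 37.9% lower of all genes. Chm, the escort protein that presents Rabs to geranylgeranyl transferase, rose from a mean of 7.24 to 26.3 CPM (2.20, SE 0.42, adjusted p = 0.000388, limma-voom), and Rabac1, a prenylated Rab acceptor, fell from 150 to 47.3 CPM (-1.54, SE 0.30). The counts were 4 higher and 3 lower in fibrosis (35.3% and 34.9% of all genes) and 2 and 2 in cirrhosis (27.1% and 24.7%). The extremes were the same, Chm (2.00 and 1.21) and Rabac1 (-1.85 and -1.69). Between cirrhosis and fibrosis 3 of 7 were lower (29.5% of all genes), led by Rabggtb, the catalytic subunit of the transferase (-1.38, SE 0.07). Between fibrosis and acute injury the 7 genes had log2 fold changes of -0.28 to 0.17, and in TAA control against T control -0.19 to 0.47, and were not called.

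Of 30 GEFs, 8 were higher and 16 lower in acute injury (median -0.75), beside 35.5% higher and 37.9% lower among all genes. The counts were 8 and 16 in fibrosis (-0.83), beside 35.3% and 34.9% of all genes, and 6 and 10 in cirrhosis (-0.29), beside 27.1% and 24.7%. Dennd3, a GEF of Rab12, fell from a mean of 241 to 19.2 CPM in acute injury (-3.61, SE 0.17, adjusted p = 4.85e-09, limma-voom). Dennd1b, a GEF of Rab35, rose from 3.06 to 16.2 CPM there (2.47, SE 0.32) and to 20.5 CPM in fibrosis (2.91, SE 0.26). In fibrosis the deepest fall was of Rab3il1, a GEF of Rab8 that binds Rab3a, from 35.7 to 2.93 CPM (-3.48, SE 0.23). In cirrhosis the extremes were Mon1a, a subunit of the Rab7 GEF (-1.86, SE 0.22), and Dennd4a, a GEF of Rab10 (1.22, SE 0.40, adjusted p = 0.0196).

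GAPs numbered 6 higher and 17 lower of 33 in acute injury, 6 and 13 in fibrosis and 7 and 12 in cirrhosis. Of all genes, 35.5% were higher and 37.9% lower in acute injury, 35.3% and 34.9% in fibrosis and 27.1% and 24.7% in cirrhosis. Tbc1d15, a Rab7 GAP, rose from 78.7 to 279 CPM in acute injury (2.05, SE 0.37) and 274 CPM in fibrosis (2.09, SE 0.37). Sgsm1, a TBC-domain protein, fell from 7.13 to 0.317 CPM in acute injury (-4.57, SE 0.51, adjusted p = 5.13e-06, limma-voom) and to 0.689 CPM in fibrosis (-3.15). In cirrhosis Rabgap1l rose by 1.18 (SE 0.22) and Tbc1d13, a Rab35 GAP, fell by 1.70 on the log2 scale (SE 0.17).

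Effectors were 14 higher and 18 lower of 41 in acute injury, 11 and 18 of 42 in fibrosis and 17 and 8 of 43 in cirrhosis. Beside them, 35.5% of all genes were higher and 37.9% lower in acute injury. In fibrosis these shares were 35.3% and 34.9%, and in cirrhosis 27.1% and 24.7%. Eea1, the tether that Rab5 recruits to early endosomes, rose from a mean of 12.0 CPM in healthy rats to 144 CPM in acute injury (3.86, SE 0.46, adjusted p = 9.88e-06, limma-voom) and 171 CPM in fibrosis (4.23, SE 0.42), and was 30.2 CPM in cirrhosis (1.57, SE 0.41). Sh3tc2, a Rab11 effector, fell from 10.7 to 0.124 CPM in acute injury and 0.297 CPM in fibrosis (-6.33 and -5.02) and was 9.53 CPM in cirrhosis, where it was not called (-0.17, SE 0.17). Sytl2, an effector of Rab27a, rose in cirrhosis from 0.795 to 4.57 CPM (2.74, SE 0.45, adjusted p = 0.000376), and Rilp, the Rab7 effector that recruits dynein, fell there from 13.9 to 5.71 CPM (-1.30, SE 0.19).

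Between fibrosis and acute injury 1 of 30 GEFs (Dennd2c, 0.72), 1 of 34 GAPs (Sgsm1, 1.47) and 6 of 42 effectors were higher, led by Exph5, an effector of Rab27 (3.39, SE 0.64), and 1 effector was lower, Ocrl (-0.72, SE 0.17), beside 10.2% higher and 0.732% lower among all genes. From fibrosis to cirrhosis 13 of 30 GEFs, 12 of 34 GAPs and 21 of 44 effectors were higher and 3, 6 and 9 lower, beside 34.3% higher and 29.5% lower among all genes, with Sh3tc2 (4.90), Sgsm1 (3.23) and Dennd2d (2.51) the largest rises and Eea1 (-2.60), Dennd1b (-1.86) and Tbc1d15 (-0.99) the largest falls. In the TAA control against the T control group 5 of 30 GEFs, 2 of 33 GAPs and 8 of 41 effectors were higher and 2, 3 and 6 lower, beside 12.7% higher and 14.9% lower among all genes. Dennd1c (2.78), Sytl3 (2.44) and Tbc1d10c (2.40) were the largest rises there. Rin1, a GEF of Rab5 (-1.90), Myo5a (-1.47) and Tbc1d2 (-1.11) were the largest falls. The part of the cell markers given above in these rises and falls was not tested.

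The promoters of the members were read for what the naming rule did not use. Of the 58 genes, 47 matched a RefSeq promoter of GRCr8 by symbol, and the 250 bases before the start were searched on both strands. The median GC content was 62.4% over the Rab promoters, beside 52.0% over all 27456 promoters and 60.0% over the genes tested in acute injury. The GC box GGGCGG was in 36 of 47 (76.6%), beside 32.4% of all promoters and 58.0% of those of tested genes. The TATA box TATAAA was in 0 of 47, beside 13.1% and 6.80%. Shares of the CCAAT box CCAAT (16, 34.0%, beside 34.3% of all), the ETS core CCGGAA (11, 23.4%, beside 13.4% of all and 23.5% of tested genes) and the AP-1 site TGANTCA (4, 8.51%, beside 6.36%) were close to 1 or both backgrounds.

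The E box CACGTG was in 3 of 47 Rab promoters (6.38%, beside 5.79% of all), and all 3, those of Rab5a, Rab21 and Rab31, belong to genes higher in acute injury, where it was in 3 of 14 (21.4%) promoters of higher and 0 of 16 of lower Rab genes, beside 9% and 6.79% for all higher and all lower genes. Median GC content was 70.4% over the 14 promoters of Rab genes higher in acute injury and 60.4% over the 16 of those lower, beside 60.8% and 59.2% for all higher and all lower genes. These shares are descriptions of letters in a window and were not tested.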

How the data were processed

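LSEC RNA of 32 libraries was prepared as stranded poly(A) libraries, and per the submitters' processing notes reads were trimmed with Trim Galore, mapped to Rnor_6.0 with STAR and quantified with RSEM. The deposited values are expected counts (estimated counts) per gene for each library, made by the authors without normalization or pooling, and 9 Rab genes had values that were not whole numbers. They were rounded. Each comparison was fitted with limma-voom (limma 3.58.1, edgeR 4.0.16, R 4.3.3) on its 2 groups after filterByExpr and TMM, with Benjamini-Hochberg adjustment, at an adjusted p under 0.05 and a fold over 1.5. TMM factors for CPM were computed over the 22 CCl4 or the 10 TAA libraries, and 0.5 was added before taking log2. Groups came from the labels and durations from the study. Replicates are separate samples by their labels, and p-values set group differences against the spread between them. The close TAA control libraries 14 and 15 count as 2 samples in the main p-values. Alternatives were edgeR and DESeq2 1.42.0, other scaling, filters and thresholds, a single fit, quality weights, a replicate block and libraries left out. Those without hepatocyte-rich libraries, and with 2 close libraries as 1, were chosen after seeing the data. The Rab genes, role lists and other lists were chosen with earlier results of these data known. Genes given with values are the 5 largest rises and 5 largest falls called in each comparison, a fixed list of release and endocytosis Rabs, and the extremes of each other list. Rab14 and Rab21 complete counts of few genes and were named after their values were seen. The fits were also run on simulated data with 200 genes changed. Many more genes were called in the comparisons here, so these simulated data cannot check the scaling. Coordinates of genes in Rnor_6.0 and protein sequences were not used here.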

Additional observations from a re-analysis of the deposited data

Results flagged for a closer look

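The 228 groups of libraries looked at were formed by 38 named Rab genes in 6 groups. In 18 of them 1 library passed the critical value of Dixon's ratio on the log2 CPM scale. The ratio is the gap to the nearest library over the whole range. Chance would flag about 1 group in 20, that is 11.4. TAA control 13 was the library in 4 of them, for Rab32 (ratio 0.764, 42.8 CPM against 61.2 to 68.3), Rab33b (0.724, 14.1 against 12.0 to 12.5), Rab40c (0.832, 43.9 against 38.8 to 39.6) and Rab3b (1, at 0.0662 CPM with the others at 0). Fibrosis 17 was the library in 3, for Rab26 (0.768, 0.315 against 0.976 to 1.27 CPM), Rab5b (0.796, 146 against 129 to 133 CPM) and Rab3b (1, at 0.0573 CPM with the others at 0). For Rab3b each of these libraries held 2 counts, so the ratio of 1 comes from ties at 0.

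Acute 8 stood apart for Rab5a (0.776, 96.2 against 75.9 to 80.0 CPM) and Rab5b (0.760, 142 against 160 to 166 CPM). Healthy 6 did so for Rab40c (0.753, 42.7 against 76.2 to 92.1 CPM) and Rab9a (0.651, 14.3 against 3.26 to 5.56 CPM). Single cases were acute 2 for Rab9a (0.763), acute 4 for Rab30 (0.792), fibrosis 15 for Rab8b (0.857) and T control 1 for Rab27a (0.788). In cirrhosis they were library 2 for Rab10 (0.638), library 3 for Rab3b (0.697, at 3 counts) and library 6 for Rab5c (0.658, 397 against 258 to 299 CPM).

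Rab27a was lower than healthy in fibrosis and higher than healthy in cirrhosis, and the direct test between these stages gave a log2 fold change of 3.63 (adjusted p = 2.60e-10, limma-voom), with every cirrhotic library above every fibrosis library.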

How the results depend on the processing

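Counts of called Rab genes moved by over 1.5 times in few settings, and no called value of the 38 named Rab genes changed sign. Differences that were not called did, in 119 values under alternatives, over 37 combinations of gene and comparison, such as Rab17 (0.24) and Rab38 (1.06, adjusted p = 0.0612, limma-voom) in cirrhosis without the hepatocyte-rich libraries. Without the hepatocyte-rich libraries, the Rab genes higher in cirrhosis went from 16 to 5. Those lower in cirrhosis than in fibrosis went from 8 to 5. This alternative was chosen after seeing the data and also has fewer libraries. Of all genes, 35.6% were then called in cirrhosis (42.5% of them higher) and 60.8% between cirrhosis and fibrosis (54.4% of them higher). With library-size CPM, the Rab genes lower in cirrhosis than in healthy rats went from 11 to 6. There 54.3% of all genes were called and 71.3% of these were higher. Without the fold threshold, the lower genes went from 0 to 1 between fibrosis and acute injury, from 8 to 16 between cirrhosis and fibrosis and from 2 to 10 in the TAA experiment. All genes were not counted at that threshold. Without a low-count filter, the higher genes of the TAA experiment went from 4 to 7, with 4662 of all 22229 genes called (44.4% of them higher). The median log2 CPM of the Rab genes in fibrosis moved from 4.60 to 4.69 with a pseudocount of 2. Leaving out 1 library at a time gave 15 to 17 higher and 18 to 20 lower Rab genes in acute injury. It gave 17 to 19 and 18 to 19 in fibrosis, and 13 to 19 and 10 to 11 in cirrhosis. Of all genes, these fits called 10096 to 10559 in acute injury (47.8% to 51.1% of them higher). They called 9777 to 10360 in fibrosis (49.5% to 50.6%) and 6833 to 8478 in cirrhosis (50.2% to 52.6%). Healthy, acute and cirrhotic libraries of different rats carry the same replicate numbers, and same-numbered libraries deviated with correlations from -0.249 to 0.293. Differently numbered libraries were not correlated for reference, so these values cannot decide whether the numbers pair libraries. With the replicate block, 17 Rab genes were higher and 17 lower in acute injury and 16 and 12 in cirrhosis. Of all genes 10896 of 14242 were then called in acute injury (49.9% of them higher) and 7275 of 14789 in cirrhosis (49.1%). At this depth Rab genes with a few counts per library, such as Rab3b, could not be compared.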
